A study of Homo sapiens with 5 samples.

Results

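Expression of 10 genes of the cornified envelope, SPRR1A, SPRR1B, SPRR2A, SPRR2D, SPRR2E, SPRR3, IVL, TGM1, CNFN and RPTN, was examined out of 33538 genes counted in single human esophageal squamous cell carcinoma (ESCC) cells. The genes were listed by symbol, all 10 were found in the matrices, and all are accounted for in what follows, whether or not they were detected. KYSE30 is an established human ESCC line, and all 5 libraries are labelled as KYSE30-Luc-GFP, a derivative that carries luciferase and green fluorescent protein (GFP). One group, the parental cells, was cultured in vitro, and the other 4 groups were GFP-positive living cells sorted from dissociated lungs at 6 h and 48 h and again at 2 and 4 months after intravenous injection of the line into NOD SCID mice aged 4 to 5 weeks, which lack functional B and T cells. Each timepoint is 1 library, made from a single mouse at 4 months and from several pooled mice at each earlier lung timepoint, so timepoint and library cannot be told apart, there is no replicate and no test was made between timepoints.

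The cornified envelope is a sheet of crosslinked protein that replaces the plasma membrane of squamous cells at the end of their differentiation. Small proline-rich (SPRR) proteins, involucrin and repetin serve as its building blocks, cornifelin is another of its components, and transglutaminases tie them together. In the esophagus, whose lining does not normally keratinize, SPRR3 and involucrin are products of the suprabasal layers, while several other SPRR genes are known as stress and injury genes of squamous epithelia.

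The 5 libraries held 26712 barcodes, of which 19986 passed the limits of 200 to 8000 genes, at least 1000 unique molecular identifiers (UMIs) and at most 15% mitochondrial UMIs, and 398 of these cells had a barcode also seen in another library. In timepoint order from the parental library to 4 months, 9059, 1957, 1149, 3322 and 4499 cells were kept, with median depths from 12979 UMIs at 6 h to 39076 UMIs at 48 h. Levels are given as CPM, the gene's UMIs summed over cells, divided by all UMIs of those cells and scaled to a total of 1000000. A UMI marks the 3′ end of 1 captured molecule, so CPM are not divided by transcript length. Intervals are 95% exact Poisson intervals for summed counts and their ratios and exact binomial (Clopper-Pearson) intervals for shares, and they cover counting error only.

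Most cells of the parental library lacked the squamous markers that the later libraries carried. Cells were called signature-positive by a filter defined in the study, which asks for at least 1 UMI from each of both its gene groups and uses none of the 10 genes. Only 14.5% of parental cells (1310 cells) were signature-positive, whereas the lung libraries, in timepoint order, were so in 98.2%, 95.6%, 81.8% and 99.2% of their cells. Among 8 markers of squamous epithelium (KRT5, KRT14, KRT6A, KRT17, TP63, DSG3, EPCAM and CDH1), the summed level was 4.69 CPM in the 7749 signature-negative parental cells, with KRT5 at 0 UMIs, against 219 CPM in signature-positive parental cells. It was 1003 CPM at 6 h, 604 CPM at 48 h, 10765 CPM at 2 months and 17229.5 CPM at 4 months. In culture, KRT5 stood at 0.032 CPM even in signature-positive cells, whereas it reached 1748 CPM at 4 months. Markers of other cells were low in signature-positive cells of every library, with sums of 1.36 to 8.07 CPM for lung epithelium, 2.784 to 6.51 CPM for fibroblasts, 0.558 to 1.23 CPM for endothelium and 2.38 to 26.1 CPM for leukocytes, of which CD68 and CSF1R made up most. The genes counted are human, so these sums are no measure of mouse lung cells. In signature-negative cells the largest such sums were 4560 CPM for fibroblasts at 48 h (50 cells) and 3973 CPM for leukocytes at 6 h (35 cells). These cells are part of all kept cells. Comparisons below are made between signature-positive cells, and values over all kept cells are given for the genes whose direction or call depends on this choice and for the SPRR1 genes and SPRR3. The files do not settle whether the signature-negative parental cells are cells of the line.

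The SPRR members sit close together in the genome. Of the 10 genes, 8 lie on chromosome 1 in the epidermal differentiation complex, within 953 kb from RPTN (chr1:152153595-152159228, GRCh38) to SPRR2E (chr1:153093135-153106184), and the 6 SPRR members take up 122 kb of it. IVL lies between RPTN and the SPRR genes at chr1:152908546-152911886. TGM1 (chr14:24249114-24264432) and CNFN (chr19:42387019-42390297) lie elsewhere. Sequences upstream of the start were found in the RefSeq promoter table (GRCh38.p14) for 7 of the 10 genes, and SPRR2D, SPRR2E and TGM1 had no entry. Sequences of 4 neighbouring SPRR genes and of IVL are shown because they hold the letters that these promoters share. Each is the 250 bases before the start, 5′ to 3′ on the gene's strand, and capitals mark every match, on either strand, to the AP-1 motif TGANTCA (N is any base). The regions are chr1:152983831-152984080 (plus strand) for SPRR1A, chr1:153030953-153031202 (plus) for SPRR1B, chr1:153001499-153001748 (plus) for SPRR3, chr1:153057513-153057762 (minus) for SPRR2A and chr1:152908296-152908545 (plus) for IVL.
SPRR1A: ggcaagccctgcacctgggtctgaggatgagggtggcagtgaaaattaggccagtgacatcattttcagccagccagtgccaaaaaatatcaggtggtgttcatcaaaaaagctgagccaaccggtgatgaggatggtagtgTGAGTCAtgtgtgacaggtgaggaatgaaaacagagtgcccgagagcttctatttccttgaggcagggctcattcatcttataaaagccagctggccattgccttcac
SPRR1B: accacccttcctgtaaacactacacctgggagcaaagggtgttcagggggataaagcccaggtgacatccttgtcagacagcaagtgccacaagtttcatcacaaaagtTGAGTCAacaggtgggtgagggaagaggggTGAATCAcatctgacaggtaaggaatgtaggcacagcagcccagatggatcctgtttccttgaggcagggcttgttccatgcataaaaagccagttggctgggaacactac
SPRR3: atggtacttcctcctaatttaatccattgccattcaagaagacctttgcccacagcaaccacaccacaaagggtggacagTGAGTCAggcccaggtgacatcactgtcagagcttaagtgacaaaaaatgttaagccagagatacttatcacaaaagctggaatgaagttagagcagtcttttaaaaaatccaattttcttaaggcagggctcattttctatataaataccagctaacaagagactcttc
SPRR2A: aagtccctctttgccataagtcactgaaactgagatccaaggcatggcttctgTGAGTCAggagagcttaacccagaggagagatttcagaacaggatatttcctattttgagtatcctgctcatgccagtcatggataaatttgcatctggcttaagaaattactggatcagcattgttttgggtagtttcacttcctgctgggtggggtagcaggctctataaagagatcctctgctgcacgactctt
IVL: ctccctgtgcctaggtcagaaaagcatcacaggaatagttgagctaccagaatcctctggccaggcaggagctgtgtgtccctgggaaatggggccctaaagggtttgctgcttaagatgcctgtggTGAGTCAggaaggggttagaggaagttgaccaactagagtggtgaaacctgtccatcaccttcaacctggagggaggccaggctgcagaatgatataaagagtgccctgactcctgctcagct
The motif was present in 6 of the 7 sequences (SPRR1A, SPRR1B, SPRR2A, SPRR3, IVL and RPTN, but not CNFN) and in 6.57% of all 35116 sequences of the same length in the table. SPRR1B held 2 matches, starting 141 and 111 bases before the start, and the others 1 each, at 108 bases in SPRR1A, 123 in IVL, 170 in SPRR3, 197 in SPRR2A and 95 in RPTN. The letters TATAAA, searched on both strands, occurred in 5 of the 7 and in 10.7% of all, with SPRR1B and CNFN the members without them. SPRR1A and SPRR1B shared a run of 18 identical bases, TTTCCTTGAGGCAGGGCT, beginning 56 and 57 bases before the start. SPRR1A and SPRR3 shared a run of 14 bases, AGGCAGGGCTCATT, 48 bases before the start of each. A match describes letters only and is no measured site.

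SPRR1B was the most abundant of the 10 genes in every lung library except 48 h. Both SPRR1 genes encode envelope precursors that are typically induced in stressed or differentiating squamous cells. SPRR1B stood at 6.39 CPM in parental signature-positive cells (interval 5.54 to 7.34), 44.8 CPM at 6 h, 21.4 CPM at 48 h, 526 CPM at 2 months and 335 CPM at 4 months. The 2 late libraries were thus far above the others, with 2 months 82.2 times the parental level (71.6 to 94.9) and 24.6 times the level at 48 h (23.1 to 26.2). SPRR1A stood at 2.85 CPM in parental cells, 23.95 CPM at 6 h, 36.7 CPM at 48 h, 141 CPM at 2 months and 98.1 CPM at 4 months. It was the member with the most UMIs at 48 h, and its order differed from that of SPRR1B, since SPRR1A was 1.53 times higher at 48 h than at 6 h (1.41 to 1.67) while SPRR1B was lower, at a ratio of 0.477 (0.439 to 0.517). At 4 months the ratio to 2 months was 0.697 for SPRR1A (0.677 to 0.716) and 0.637 for SPRR1B (0.628 to 0.646), so both stood lower there beyond counting error. Without the 10 cells of each library that held the most UMIs of the 10 genes, the level at 48 h was 13.2 CPM for SPRR1A and 10.2 CPM for SPRR1B, against 15.9 and 36.2 CPM at 6 h, so the higher level of SPRR1A at 48 h rested on these cells. Over all kept cells the parental level was lower, at 0.439 CPM for SPRR1A and 0.991 CPM for SPRR1B, and the log2 ratio of CPM + 1 at 2 months was 6.18 instead of 5.205 for SPRR1A and 7.60 instead of 6.15 for SPRR1B.

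All 3 SPRR2 members were highest at 4 months, and SPRR2D and SPRR2E were below 3 CPM in every earlier library. The SPRR2 genes encode a subgroup of short envelope precursors. SPRR2E had 0 UMIs in signature-positive parental cells, 0.309 CPM at 6 h, 0.407 CPM at 48 h, 1.98 CPM at 2 months and 115 CPM at 4 months. SPRR2D had 0 UMIs in parental cells and at 48 h, 3 UMIs at 6 h, 2.54 CPM at 2 months and 62.9 CPM at 4 months. SPRR2A had 10 UMIs in parental cells (0.316 CPM), 6.57 CPM at 6 h, 1.78 CPM at 48 h, 0.795 CPM at 2 months and 77.0 CPM at 4 months. From 2 to 4 months the level was 58.3 times higher for SPRR2E (48.6 to 70.5), 24.8 times for SPRR2D (21.1 to 29.3) and 96.8 times for SPRR2A (72.8 to 132). Against the parental cells, with 3 counts over the group as the upper limit of a count of 0, SPRR2D at 4 months was at least 662-fold higher and SPRR2E at least 1215-fold higher.

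Few cells carried these transcripts. At 4 months, SPRR2A was found in 142, SPRR2D in 252 and SPRR2E in 138 of 4465 signature-positive cells, and 10 cells held 77.1%, 56.0% and 78.0% of the UMIs, respectively. A single cell held 2200 UMIs of SPRR2A, 1070 of SPRR2D and 2616 of SPRR2E. At 6 h, 145 of the 213 UMIs of SPRR2A came from 1 cell, so the level at that timepoint is largely a value of 1 cell, and without the 10 cells with the most UMIs of the 10 genes it was 2.12 CPM. With those cells left out in the same way, the levels at 4 months were 26.8 CPM for SPRR2A, 31.9 CPM for SPRR2D and 28.1 CPM for SPRR2E, which still lay above the values at 2 months of 0.782, 2.46 and 1.34 CPM computed in the same way. Of the 90-base windows in the last 500 transcript bases, 4.36% of those of SPRR2D also occurred in SPRR2A, SPRR2B, SPRR2E or SPRR2G, while no window in the last 500 bases of the other 9 genes was shared, so reads from these windows cannot be assigned to 1 gene with certainty.

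SPRR3, the SPRR gene most typical of esophageal epithelium, followed neither pattern. Its level was 2.40 CPM in parental cells, 22.0 CPM at 6 h, 19.4 CPM at 48 h, 45.2 CPM at 2 months and 18.4 CPM at 4 months. Of these, 2 months was the highest. The ratio of 4 to 2 months was 0.407 (0.385 to 0.431), the lowest among the 8 members with at least 5 CPM in either library. At 4 months, SPRR3 was found in 55 cells (1.23%), and 1 of them held 1086 of 2305 UMIs. At 48 h it was found in 29 cells. Without the 10 cells with the most UMIs of the 10 genes in each library, its level was 1.435 CPM in parental cells, 15.2 CPM at 6 h, 2.496 CPM at 48 h, 29.9 CPM at 2 months and 9.40 CPM at 4 months, so the levels at 48 h and 4 months rested on few cells. Over all kept cells its parental level was 0.376 CPM, and the log2 ratio of CPM + 1 at 2 months was 4.63 instead of 3.76.

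IVL encodes involucrin, an early scaffold of the envelope and a target of transglutaminases. It stood at 7.66 CPM in parental signature-positive cells (6.72 to 8.69), 8.80 CPM at 6 h, 5.16 CPM at 48 h, 82.9 CPM at 2 months and 62.8 CPM at 4 months. Parental cells and 6 h did not differ beyond counting error, with a ratio of 1.15 (0.965 to 1.37), and 48 h was lower than parental at a ratio of 0.674 (0.562 to 0.809). Both statements depend on the class of cells, since over all kept cells the parental level was 1.19 CPM, beside 8.79 CPM at 6 h and 5.15 CPM at 48 h, and the log2 ratio of CPM + 1 was 2.16 instead of 0.18 at 6 h and 1.49 instead of -0.49 at 48 h. The late libraries stood apart from all earlier ones, at 10.8 times (9.51 to 12.4) and 8.20 times (7.22 to 9.36) the parental level. Their order also depended on the class of cells, since over all kept cells IVL stood at 60.7 CPM at 2 months and 62.8 CPM at 4 months. IVL was spread over more cells than the SPRR2 genes, with no cell above 99 UMIs in any library.

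TGM1, which encodes the membrane-anchored keratinocyte transglutaminase that crosslinks these proteins, was scarcely detected. Its UMIs in signature-positive cells numbered 4 in culture, 4 and 10 in the early lung libraries (6 h and 48 h) and 48 and 112 in the late ones (2 and 4 months), where its level was 0.812 and 0.893 CPM. The ratio to parental cells was 6.41 at 2 months (2.35 to 24.5) and 7.06 at 4 months (2.68 to 26.4), on a level below 1 CPM throughout. RPTN, which encodes the S100-fused precursor repetin, had 0 UMIs in parental cells and at 48 h, 1 UMI at 6 h, 28 UMIs at 2 months and 60 UMIs at 4 months. Its UMIs lay in 12 cells at 2 months and 18 cells at 4 months.

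CNFN, which encodes cornifelin, was the only member above 1 CPM in signature-negative parental cells. TGM1, at a far lower level, was also no higher in the signature-positive class, at 0.127 against 0.133 CPM. CNFN stood at 6.80 CPM in signature-positive parental cells, 5.68 CPM at 6 h, 13.1 CPM at 48 h, 35.4 CPM at 2 months and 25.6 CPM at 4 months. In the signature-negative parental cells it reached 21.3 CPM, and 35.2% of these cells had a UMI (34.1 to 36.2%) against 14.2% of the signature-positive cells (12.4 to 16.2%), with median depths of 22772 and 24831 UMIs. The 606 signature-negative cells at 2 months, with a median of 37139.5 UMIs, held 42.0 CPM of CNFN, and 67.2% of them had a UMI. Over all kept cells CNFN was therefore lower at 6 h than in the parental culture, with a log2 ratio of CPM + 1 of -1.56 instead of -0.22, and at 48 h its direction turned from 0.86 to -0.51. At 2 and 4 months the ratio was then 0.93 instead of 2.22 and 0.41 instead of 1.77, no longer past 2-fold. At 4 months, 799 of 3210 UMIs came from 1 cell, and without the 10 cells with the most UMIs of the 10 genes the level was 17.0 CPM.

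**Figure D1:**
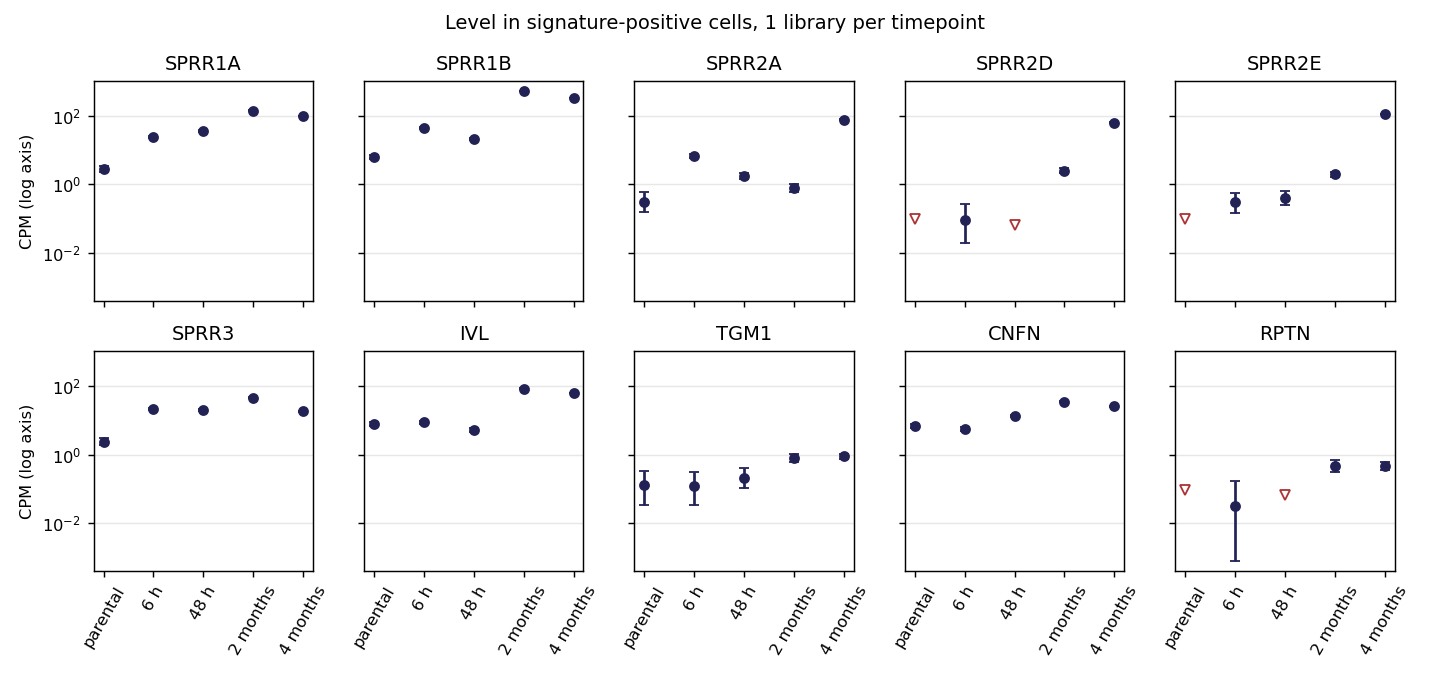
Level of each of the 10 genes in signature-positive cells (CPM, log axis) in the 5 libraries, with 95% Poisson intervals and open triangles at the limit of 3 counts where no UMI was found. SPRR1A, SPRR1B and IVL are highest in the 2 late libraries, SPRR2D and SPRR2E reach over 60 CPM at 4 months only, and TGM1 and RPTN stay below 1 CPM.

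The counts of members were read against all genes. A gene was counted where at least 1 of both libraries had 5 CPM, and called where the log2 ratio of CPM + 1 lay past 2-fold. A gene below 5 CPM in the earlier library was thus counted only through the later one. Such a gene could not be called lower. Of the members, only SPRR1B, IVL and CNFN had 5 CPM in parental cells, at 6.39, 7.66 and 6.80 CPM. At 6 h against parental cells, 4 of 6 counted members were higher (SPRR1A, SPRR1B, SPRR2A and SPRR3) and 0 lower, beside 10.6% and 12.4% of all 9931 genes counted. At 48 h, 3 of 5 were higher (SPRR1A, SPRR1B and SPRR3) and 0 lower, beside 12.9% and 9.43% of all genes. Without the 10 cells with the most UMIs of the 10 genes in each library, 3 members were called higher at 6 h and 2 at 48 h. SPRR2A at 6 h (2.12 CPM) and SPRR3 at 48 h (2.496 CPM) then no longer reached 5 CPM. The share of all genes called without these cells is not given.

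More members were called in the late libraries. At 2 months, 5 of 5 were higher than in parental cells (SPRR1A, SPRR1B, SPRR3, IVL and CNFN) and 0 lower, beside 8.82% and 10.2% of all genes. At 4 months, 8 of 8 were higher, all but TGM1 and RPTN, which did not reach 5 CPM, and 0 lower, beside 8.18% and 14.5% of all genes. SPRR2A, SPRR2D and SPRR2E, at 0.316, 0 and 0 CPM in parental cells, were bound to be called higher once counted. SPRR1A and SPRR3, at 2.85 and 2.40 CPM in parental cells, could not be called lower at 2 or 4 months. In timepoint order from 6 h to 4 months, the median log2 ratio of the counted members was 2.58, 1.60, 3.76 and 5.10, while that of all counted genes was -0.05, 0.11, -0.03 and -0.23. The medians of members cover different sets, of 6, 5, 5 and 8 members in the same order. At 4 months the set also held SPRR2A, SPRR2D and SPRR2E, at 5.89, 5.997 and 6.86, which were not counted at 2 months. The members counted in both late libraries, SPRR1A, SPRR1B, SPRR3, IVL and CNFN, stood at 4.69, 5.51, 2.51, 2.88 and 1.77 at 4 months. Each of them was lower there than at 2 months, although over all kept cells IVL was not. The 4 comparisons share the parental library.

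Between consecutive lung libraries, the step from 48 h to 2 months was the one in which most members stood higher. There, 5 of 5 counted members were higher and 0 lower, beside 7.67% and 12.7% of all genes. From 6 h to 48 h, CNFN was higher and SPRR1B and SPRR2A lower among 6 counted members, beside 3.19% higher and 1.37% lower of all genes. SPRR2A, at 1.78 CPM at 48 h, was counted only through 6 h and was bound to be called lower. From 2 to 4 months, SPRR2A, SPRR2D and SPRR2E were higher and SPRR3 lower among 8, beside 2.15% and 2.37%. The 3 SPRR2 members, at 0.795, 2.54 and 1.98 CPM at 2 months, were counted only through 4 months and could not be called lower. Of these, SPRR2A and SPRR2E were bound to be called higher once counted. Over all kept cells SPRR3 was past 2-fold neither here nor from 48 h to 2 months. The summed level of the 10 genes was 26.5 CPM in parental cells, 112 CPM at 6 h, 98.2 CPM at 48 h, 836 CPM at 2 months and 796 CPM at 4 months, and 4 months stood at 0.952 times 2 months (0.942 to 0.962). Over all kept cells the order was reversed, with the sum higher at 4 months than at 2 months. It was also reversed in signature-positive cells when SPRR1B was left out of the sum. In signature-positive cells the makeup of the sum differed more than its size. SPRR1B took 62.8% of it at 2 months and 42.0% at 4 months, and SPRR2A, SPRR2D and SPRR2E went from 0.095%, 0.303% and 0.237% to 9.67%, 7.89% and 14.5%.

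Shares of cells with a transcript depend on depth, so each cell was thinned to 1000 UMIs. At this depth, SPRR1B was found in 0.534% of signature-positive parental cells, in 2.65% and 1.73% of cells in the 6 h and 48 h libraries, and in 19.1% (17.6 to 20.6%) and 16.95% (15.9 to 18.1%) in the 2-month and 4-month libraries. With all UMIs the shares were 9.47%, 17.0%, 14.1%, 47.7% and 47.3%. IVL was found, at 1000 UMIs and in the same order of libraries, in 1.22%, 0.780%, 0.364%, 7.66% and 6.00% of cells. For SPRR1B and IVL, late libraries thus exceeded early ones in the share of cells and not in level alone.

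SPRR3 and the SPRR2 genes remained rare. At 1000 UMIs, SPRR3 was found in 2.06% of cells at 2 months (1.56 to 2.67%) and 0.358% at 4 months (0.205 to 0.581%), so fewer cells carried it at 4 months. SPRR2D was found in 0.442% and 1.75%, respectively. The signature-negative parental cells give the share found in cells lacking squamous markers, where SPRR1B had a UMI in 1 of 7749 cells and IVL in 2, at a median depth of 22772 UMIs. SPRR1A was found in 0 of these 7749 cells, which by the limit of 3 counts allows a share of cells with a UMI of up to 0.0387%. In the signature-negative cells at 2 months, SPRR1B was found in 25 of 606 cells (4.13%) and 88 of its 166 UMIs came from 1 cell.

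**Figure D2:**
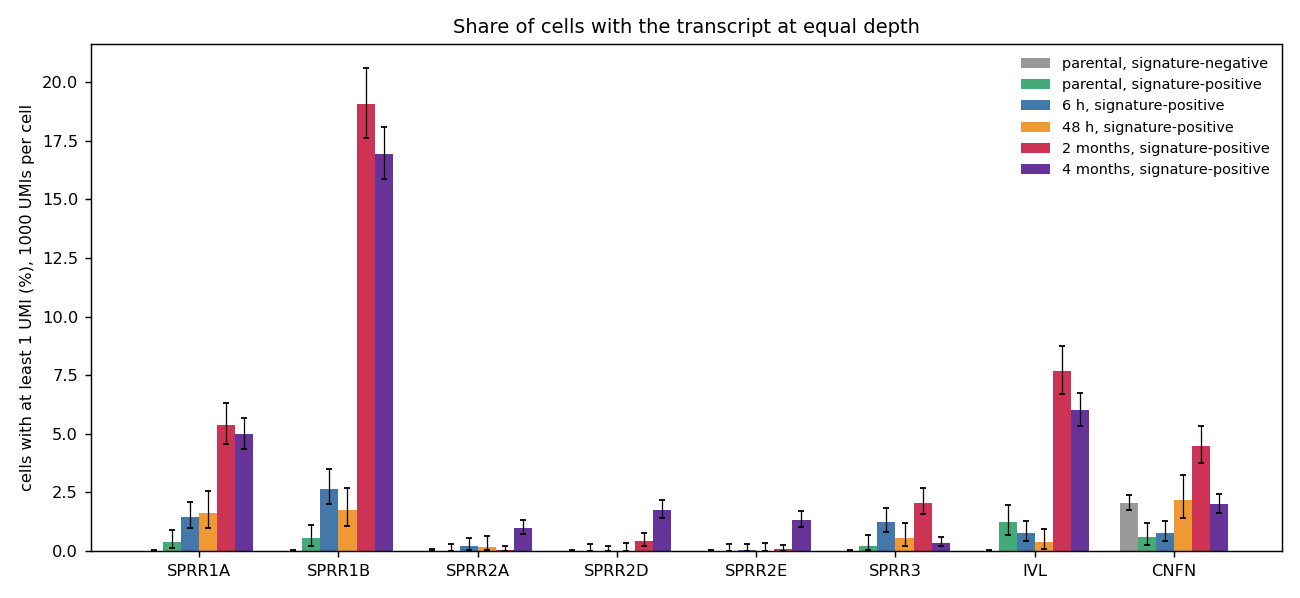
Share of cells with at least 1 UMI (%) after thinning each cell to 1000 UMIs, for 8 of the genes, in signature-negative parental cells (grey) and signature-positive cells of each library, with 95% Clopper-Pearson intervals. SPRR1B reaches 19.1% at 2 months and 16.95% at 4 months, whereas CNFN is the one gene with a visible share, 2.04%, in signature-negative parental cells.

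The UMIs of the 10 genes were held by a small part of the cells in all lung libraries. Counted from the cell with the most downwards, 50% of the UMIs lay in 108 signature-positive parental cells, in 41 and 9 cells of the 6 h and 48 h libraries and in 115 and 66 cells of the 2-month and 4-month libraries. Cells with at least 100 UMIs of the 10 genes were absent from the parental library, numbered 5 and 10 in the early lung libraries and reached 130 (4.79% of signature-positive cells) at 2 months and 168 (3.76%) at 4 months. They held 53.3% of the UMIs at 2 months and 64.0% at 4 months. In most of them SPRR1B led, in 102 of 130 cells at 2 months and 109 of 168 at 4 months, while SPRR2A, SPRR2D and SPRR2E, which led in 0 cells at 2 months, led in 9, 9 and 14 at 4 months.

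The cells with the highest sums were of different kinds. At 48 h, the cell with the most had 360 UMIs of the 10 genes, of which SPRR3 made up 332, and the next had 329, of which SPRR1B made up 275. At 4 months, the cell with the most held 7625 such UMIs, or 19.6% of its 38979 UMIs, and its mitochondrial share was 0.254%. This cell had 222 UMIs of SPRR1A, 629 of SPRR1B, 43 of SPRR3, 43 of IVL and 799 of CNFN beside those of SPRR2A, SPRR2D and SPRR2E. The cells with at least 100 UMIs had a median depth of 28066 UMIs against 27680 in the other cells at 4 months, and a median mitochondrial share of 4.38% against 5.74%. At 2 months these values were 25835.5 against 19138 UMIs and 4.595% against 6.72%. The part of depth and mitochondrial share in these counts was not tested, and 6 of the 130 and 4 of the 168 cells had a barcode seen in another library.

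**Figure D3:**
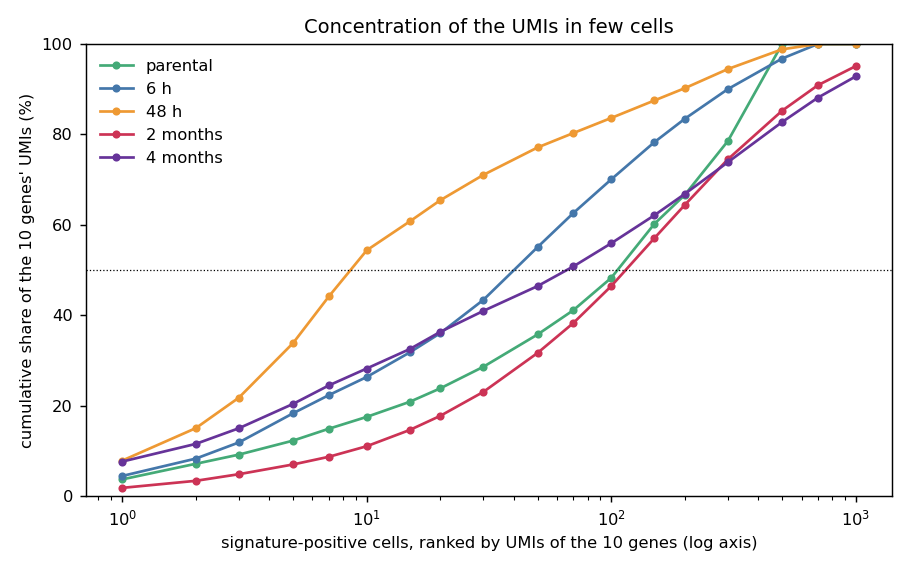
Cumulative share of the UMIs of the 10 genes (%) over signature-positive cells ranked from the most such UMIs to the fewest (log axis), 1 line per library, with a dotted line at 50%. The line of 48 h crosses 50% at 9 of 1099 cells and that of 2 months at 115 of 2716 cells. The axis shows numbers of cells, and the libraries differ in size.

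SPRR genes and IVL were found in the same cells more often than their separate shares would give. For each pair, the number of signature-positive cells with both was divided by the product of the shares, after thinning to 3000 UMIs per cell. SPRR1A and SPRR1B occurred together in 24, 14, 202 and 272 cells of the lung libraries in timepoint order, which was 5.11, 13.4, 2.80 and 3.01 times the product. At 4 months, 81.9% of the cells with SPRR1A also had SPRR1B, while 23.7% of the cells with SPRR1B had SPRR1A. SPRR1B and IVL reached 2.07 times the product in both late libraries, with 250 and 316 shared cells.

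Among pairs found together in at least 5 cells, the highest ratios lay within the SPRR2 genes at 4 months, and pairs with fewer shared cells, such as those with RPTN, are not ranked. A ratio cannot exceed the inverse of the larger share, so the ranking favours rare genes. It does not measure how tightly a pair goes together. At 4 months, 88.9% of the cells with SPRR2E had SPRR1B, at a ratio of 3.26, and 47.6% had SPRR2A. SPRR2A and SPRR2E occurred together in 30 cells, 32.4 times the product, SPRR2D and SPRR2E in 41 cells, 28.3 times, and SPRR2A and SPRR2D in 31 cells, 21.7 times. With all UMIs, 58.7% of the 138 cells with SPRR2E had SPRR2D (50.01 to 67.0%) against 3.95% of the other cells, and 89.1% had SPRR1B against 45.9%. Median depths were 25317 and 27792 UMIs, so cells with SPRR2E were not the deeper ones. SPRR3 went with IVL, at 3.86 times the product at 2 months and 3.60 times at 4 months. With all UMIs, 133 of the 174 cells with SPRR3 at 2 months (76.4%) also had IVL, against 32.1% of the other cells. RPTN, rare as it was, lay in cells with IVL in 12 of 12 cells at 2 months and 15 of 18 at 4 months. IVL was found in 34.6% and 37.6% of the cells without RPTN, respectively.

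CNFN differed by partner and library. At 2 months its ratio was 0.642 with SPRR1A, 0.747 with SPRR1B and 0.957 with IVL, below the product, and 1.69 with SPRR3, on 17 shared cells. At 4 months the ratios were 1.66, 1.38 and 1.34, and 3.98 with SPRR2E. With all UMIs at 2 months, CNFN was found in 45.1% of cells with SPRR1A against 46.4% of the other cells. The shares were 45.0% against 47.1% for SPRR1B and 46.5% against 45.9% for IVL, so they differed little at full depth. Cells of 1 library share their source, so these ratios and shares describe the libraries and carry no test.

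**Figure D4:**
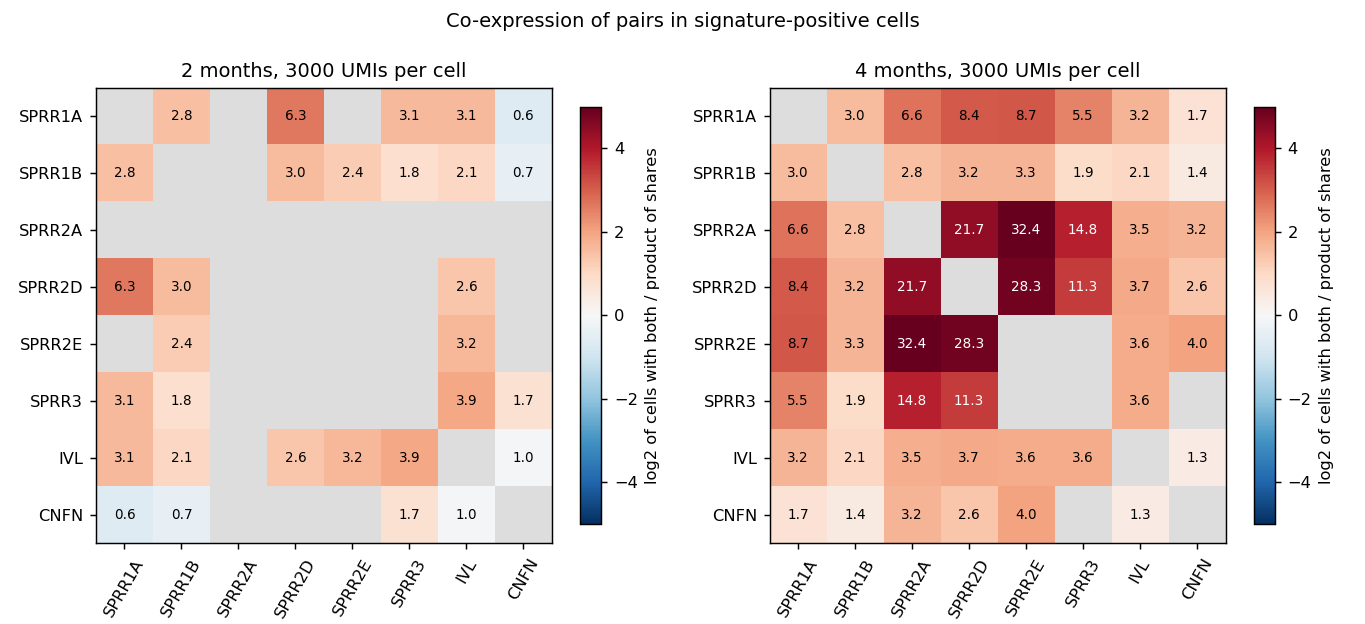
Number of signature-positive cells with both genes of a pair divided by the product of their shares (numbers in the cells, colour on the log2 scale) at 2 and 4 months, after thinning to 3000 UMIs per cell; grey marks pairs found together in fewer than 5 cells. The pairs of SPRR2A, SPRR2D and SPRR2E stand at 21.7 to 32.4 at 4 months, and CNFN with SPRR1A at 0.642 at 2 months, on 18 shared cells. The ratio is bounded by the inverse of the larger share, so pairs of rare genes can reach higher values.

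The number of members per cell differed in the same way. At 3000 UMIs, 0.153% of signature-positive parental cells held at least 3 of the 10 genes, against 0.658% and 0.935% in the early and 6.16% and 5.08% in the late lung libraries. At least 5 were found in 7 of 2646 cells at 2 months and 38 of 4215 cells at 4 months, and in 0 cells of the earlier libraries.

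Among other genes of the envelope, those of the SPRR and LCE families were counted in the late libraries only. Of 26 other SPRR, LCE and neighbouring genes in the files, 0 were counted at 6 h and at 48 h. Against parental cells, 3 of 3 counted were higher at 2 months and 4 of 4 at 4 months, beside 8.82% and 8.18% of all genes. Those counted had at most 0.0633 CPM in parental cells, so once counted they were bound to be called higher. The neighbouring gene PRR9, at 6.76 CPM, was among those counted at 2 months. LCE1C, a late cornified envelope gene, had 0 UMIs in parental cells and stood at 19.2 CPM at 2 months and 35.8 CPM at 4 months. SPRR2G was at 0.0338 CPM at 2 months and 10.6 CPM at 4 months, beside LCE1F at 2.08 and 11.8 CPM and SPRR4 at 6.09 and 8.44 CPM. Of 10 fused S100 and late envelope genes, FLG (filaggrin) alone was counted, at 0.0633 CPM in parental cells, 87.3 CPM at 2 months and 72.0 CPM at 4 months, and loricrin (LOR), named after its values were seen, reached no more than 0.223 CPM in these libraries. Of 15 other precursors and crosslinkers, 4 of 7 counted were already higher at 6 h and 4 of 7 at 48 h, beside 10.6% and 12.9% of all genes. ANXA1 (annexin A1) was at 121 CPM in parental cells, 959 CPM at 6 h and 549.9 CPM at 48 h. In the same list, 9 of 12 counted were higher at 2 months and 9 of 12 at 4 months with 0 lower in any of these comparisons, among them CSTA (cystatin A), with 0.127 CPM in parental cells, 0.154 CPM at 6 h, 87.2 CPM at 2 months and 114 CPM at 4 months. CSTA, CALML3, CALML5 and HOPX had at most 0.981 CPM in parental cells, so once counted they were bound to be called higher.

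Part of the regulators and of the suprabasal and stress keratins stood higher than in parental cells in every lung library. The counts below against parental cells stand beside 10.6%, 12.9%, 8.82% and 8.18% of all genes called higher, in timepoint order from 6 h. Called lower were 12.4%, 9.43%, 10.2% and 14.5% of all genes in the same order. Suprabasal and stress keratins were called higher in 6 of 7 counted at 6 h, 4 of 6 at 48 h, and 6 and 5 of 8 in the late libraries, with KRT6A at 35.7 CPM in parental cells, 579 CPM at 6 h, 97.7 CPM at 48 h, 3440 CPM at 2 months and 3970 CPM at 4 months. KRT4, KRT6B, KRT16 and KRT17 had at most 1.90 CPM in parental cells, so once counted they were bound to be called higher. Terminal differentiation regulators were higher in 6 of 11 counted at 6 h and again at 48 h, and in 14 and 12 of 16 in the late libraries, with 1 lower at 48 h and 0 otherwise, and KLF4, a zinc finger factor of the suprabasal program, stood at 21.3, 171, 89.3 and 98.5 CPM in parental cells and in the libraries of 6 h, 2 months and 4 months. ZNF750, a regulator of terminal epidermal differentiation chosen after its values were seen, was at 0.0316 CPM in parental cells, 19.025 CPM at 2 months and 41.8 CPM at 4 months. ZNF750 and CASZ1, the latter at 1.08 CPM in parental cells, were bound to be called higher once counted. AP-1 subunits were higher in 7 of 9 at 6 h and, at 2 and 4 months, higher in 6 and lower in 2 of 9. At 2 months against 48 h, 4 of 8 were lower and 0 higher, beside 12.7% and 7.67% of all genes. The median log2 ratio to parental cells, given for 6 h, 48 h and 2 months in turn, was 3.98, 1.31 and 6.60 for these keratins, 1.42, 1.01 and 1.73 for the regulators and 2.51, 3.73 and 2.30 for AP-1 subunits, beside -0.05, 0.11 and -0.03 for all genes. At 4 months these medians were 5.93, 1.82 and 2.27, beside -0.23 for all genes. The medians of the keratins and regulators cover different sets of counted genes. JUNB was at 81.8 CPM in parental cells, 470 CPM at 6 h, 1098 CPM at 48 h, 224 CPM at 2 months and 399 CPM at 4 months. FOS was at 33.6, 228, 650, 491 and 1275 CPM in the same order, and was thus highest at 4 months. Of barrier proteases and inhibitors, 4 of 6 counted were already higher at 6 h and 3 of 5 at 48 h, with 0 lower. SERPINB2, at 0 CPM in parental cells and 6.24 CPM at 6 h, was among the 4 and was bound to be called higher once counted. The medians of the list at 6 h and 48 h were 1.78 and 1.002. At both 2 and 4 months 10 of 11 were higher and 1 lower, with medians of 4.55 and 3.73. The lower gene was CST6, which is itself a gene of the signature filter. It stood at 392 CPM in signature-positive parental cells and at 71.1 and 115 CPM in the late libraries. Over all kept cells it stood at 60.8, 52.0 and 115 CPM, so its direction at 4 months depended on the class of cells. Of the genes higher there, KLK10, KLK11, PI3, SLPI, SERPINB3 and SERPINB13 had at most 1.58 CPM in parental cells. Once counted, they were bound to be called higher. The medians also cover different sets, of 6 and 5 genes in the early and 11 in the late libraries. SLPI, a secreted protease inhibitor, stood at 0.759 CPM in parental cells, 382 CPM at 2 months and 482 CPM at 4 months. Of barrier lipid and junction genes, 7 of 10 were higher and 1 lower at 6 h, and 5 of 10 higher and 0 lower at 48 h. In the late libraries, 8 of 11 were higher and 1 lower at 2 months and 9 of 12 higher at 4 months. DSG1 and PKP1, both at 0.0316 CPM in parental cells, were bound to be called higher once counted. Basal genes were higher in 4 of 7 counted at 6 h and 2 of 7 at 48 h, with 0 lower. Of 8 basal genes, 4 were higher and 1 lower at 2 months and 4 higher and 0 lower at 4 months. Among these, KRT5 and KRT14, at 0.0316 and 0.190 CPM in parental cells, were bound to be called higher once counted. Of 14 genes of mitosis and S phase 0 were higher, while 5, 10, 7 and 10 were lower in the lung libraries in timepoint order. Like the sum of the members, that of the squamous markers listed above was higher in every lung library than in parental cells. Both sums were higher in the late libraries than in the early ones. From 2 to 4 months that of the markers rose from 10765 to 17229.5 CPM, while that of the members, with SPRR1B included, was lower. EPCAM alone went from 306 and 307 CPM in the early to 216 and 167 CPM in the late libraries. The part of these markers in the levels was not tested.

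Within the late libraries, cells with more UMIs of the 10 genes had higher levels of some lists and lower levels of others. Cells were grouped by their UMIs of the 10 genes in 3000 UMIs, into 0, 1 to 2, 3 to 9 and 10 or more, which gave 2611, 880, 494 and 230 cells at 4 months and 1444, 635, 371 and 196 cells at 2 months. At 4 months, the summed level of barrier proteases and their inhibitors was 729, 1248, 3017 and 9899 CPM over these groups. Among them, KLK5, a kallikrein of desquamation, stood at 146, 335, 828 and 2449 CPM and its inhibitor SPINK5 at 14.4, 42.7, 291 and 1253 CPM. KRT16, a stress keratin, stood at 129, 343, 834 and 3957 CPM, and FLG at 8.16, 47.9, 263 and 724 CPM. The order was the same at 2 months, where KLK5 went from 243 to 1721 CPM and KRT16 from 75.8 to 1541 CPM between the lowest and the highest group.

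Genes of mitosis and S phase showed the opposite order. Their sum was 687, 318, 149 and 65.1 CPM at 4 months and 927, 810, 611 and 121 CPM at 2 months. MKI67, a marker of cycling cells, stood at 23.5, 9.75, 5.04 and 0.375 CPM at 4 months, and UBE2C at 154, 62.6, 22.5 and 7.88 CPM. The sum of AP-1 subunits showed little change, with 2703, 3069, 2940 and 3093 CPM at 4 months and 1491, 1476, 1361 and 1514 CPM at 2 months. Basal genes were not lower in the cells with the most UMIs, at 3293, 3522, 4226 and 4887 CPM at 4 months, although KRT5 was at 2449 CPM in the third group and 1928 CPM in the fourth. Median depths were 30809, 26789, 25462.5 and 22985.5 UMIs at 4 months, so that the cells with the most were the shallower ones, and median mitochondrial shares were 5.93%, 6.11%, 5.36% and 4.52%. The numbers of cells at 9 to 11 UMIs, next to the highest limit, were 82 at 4 months and 53 at 2 months.

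**Figure D5:**
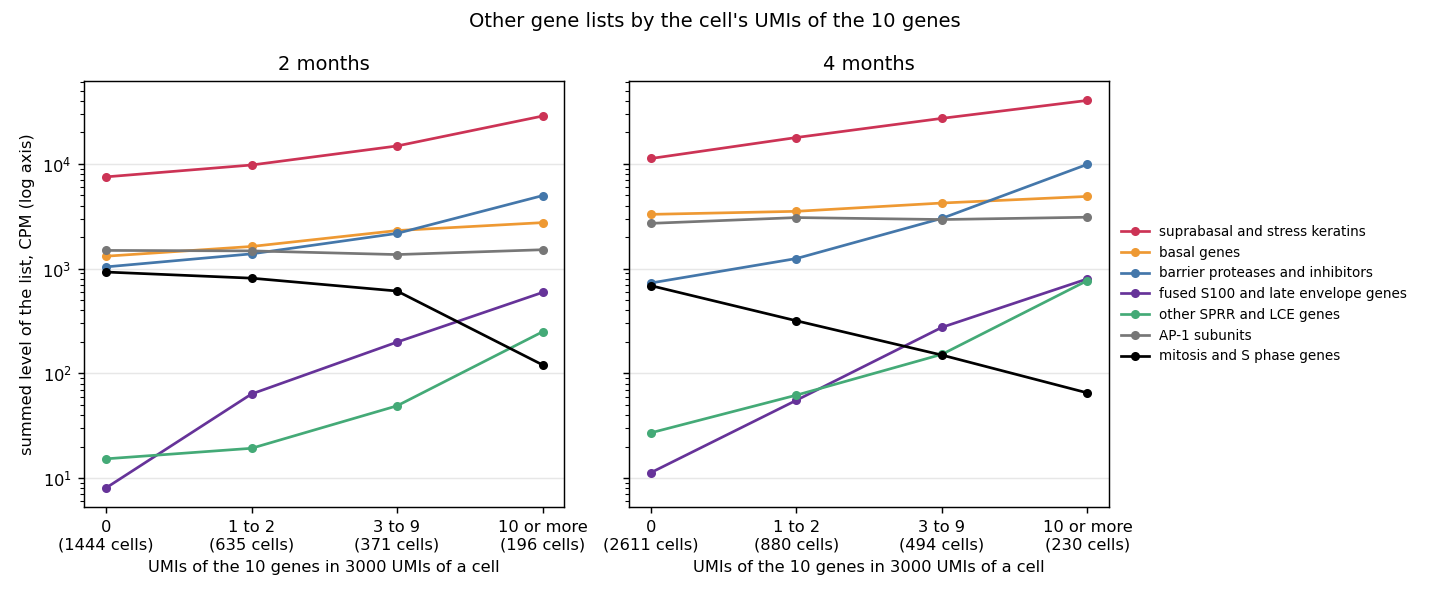
Summed level (CPM, log axis) of 7 gene lists in signature-positive cells grouped by their UMIs of the 10 genes in 3000 UMIs, at 2 and 4 months, with the number of cells of each group under the axis. Barrier proteases and inhibitors go from 729 to 9899 CPM at 4 months and mitosis and S phase genes from 687 to 65.1 CPM, while AP-1 subunits stay between 2703 and 3093 CPM.

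Genes most like the summed members were sought among 3782 others with at least 20 CPM in each lung library, by the Pearson correlation of log2 thinned counts across signature-positive cells, averaged over the 4 lung libraries. KRT6A came first with a mean of 0.376, followed by PERP (0.314), a desmosomal protein gene, KLK5 (0.298), KRT16 (0.290), LYPD3 (0.273), HSPB1 (0.238), FXYD3 (0.237), SFN (0.231), S100A11 (0.231) and KLK6 (0.221). In timepoint order the correlation of KLK5 was 0.013, 0.178, 0.472 and 0.529 in the lung libraries, and that of KRT6A was 0.226, 0.443, 0.400 and 0.436. KRT6A thus stood at 0.226 or above in all lung libraries, KLK5 in the late ones. The lowest means were those of RPS3 (-0.220), MT2A (-0.220), HSPD1 (-0.206), NPM1 (-0.204) and RPL5 (-0.203). Cells with 3000 UMIs hold few UMIs of most genes, so these correlations are descriptions of weak relations within 4 libraries of 1823, 1069, 2646 and 4215 cells.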

How the data were processed

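Human cells of 5 droplet-based 3′ single-cell RNA libraries were analysed, 1 library per timepoint. The authors deposited, for each library, a filtered matrix of raw counts, the UMIs per gene and barcode, and per the submitters' processing notes Cell Ranger 3 and GRCh38 were used, while the file headers name software version 3.0.2. From these counts, barcodes were kept that had 200 to 8000 detected genes, a total of 1000 UMIs or more and a mitochondrial share of up to 15%. UMIs were summed over the cells of a library, in signature-positive cells for comparisons, and divided by all UMIs (CPM). Ratios carry exact 95% intervals for counting error only. With 1 library per group no test between libraries was made and no count model was fitted. Depth runs from 34630469 to 206526092 UMIs per library before the filter. Cells were thinned without replacement to 1000 UMIs for shares, with all kept cells retained, and to 3000 UMIs for pairs and groups of cells. Among all kept cells, 76 to 281 per library were shallower than 3000 UMIs. Pairs and groups used the signature-positive cells with at least 3000 UMIs, which were 1304, 1823, 1069, 2646 and 4215 in timepoint order. No doublet caller was run, doublets were kept, and leaving out the deepest 5% of cells was an alternative.

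The 10 genes and all gene lists were chosen with earlier results of these data known. Beside the 10 genes, up to 4 genes with the highest CPM of each list were named, and the 10 most and 5 least alike genes with at least 20 CPM in each lung library, other genes being marked where they appear. Gene positions are from GENCODE 44 (GRCh38) and promoter sequences from RefSeq (GRCh38.p14). The scripts were tested on simulated data. Python 3.11.15, numpy 2.4.6, scipy 1.17.1, pandas 2.3.3 and matplotlib 3.10.9 were used. Alternatives changed the mitochondrial limit, quality filter, cell class, weighting of cells, minimum CPM, thinning depth and UMIs required, and left out the deepest cells, the cells with the most UMIs of the 10 genes, the most abundant member or CNFN. The mouse of origin of a cell was not analysed here. The full gene list of the signature filter is not reported here.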

Additional observations from a re-analysis of the deposited data

Results flagged for a closer look

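Barcodes that the quality limits removed also held UMIs of the 10 genes, a signal in data that no comparison above used. Their summed level was 9.63 CPM in 534 removed parental barcodes, where it rested on 16 UMIs, 79.4 CPM in 654 barcodes at 6 h, 42.0 CPM in 924 barcodes at 48 h, 392 CPM in 2716 barcodes at 2 months and 258 CPM in 1898 barcodes at 4 months. Both late libraries were again above the others, at lower levels than in the signature-positive cells. At 2 months the median mitochondrial share of the removed barcodes was 86.4%. The part of damaged cells and of free RNA in these values was not tested.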

How the results depend on the processing

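Each timepoint is 1 library, so error between animals or cultures is unknown, and TGM1 and RPTN are limited by depth. No paired analysis was possible because each group holds 1 library, and leaving out a replicate was not possible for the same reason. Among the 10 genes, no direction of a called value turned under any alternative, but directions of values that were not called did. Over all kept cells, IVL and CNFN turned at 48 h against parental cells, and IVL and the summed genes turned at 4 months against 2 months. The summed genes also turned at 4 months against 2 months when SPRR1B, the most abundant member, was left out. SPRR1A at 48 h against 6 h turned without the 10 cells with the most UMIs of the 10 genes. The order of the parental and 6 h shares of cells turned without thinning. Of the values for the summed genes, shares and counts of members, 66 stayed within their spread or limit and 36 moved. Dropping CNFN, and dropping the 10 cells with the most UMIs of the 10 genes, were chosen after seeing the data.

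The log2 ratio of the summed genes to parental cells was 2.08, 1.89, 4.98 and 4.91 in the lung libraries in timepoint order. Over all cells with no class these were 2.33, 2.14, 4.81 and 5.16, so the order of 2 and 4 months was reversed. Without the 10 cells they were 1.92, 1.04, 5.08 and 4.70. Leaving out the most abundant member gave 1.74 at 6 h, 3.95 at 2 months and 4.52 at 4 months, equal weight for each cell gave 1.89 at 6 h and 5.08 at 4 months, and a mitochondrial limit of 10% gave 5.09 at 2 months and 5.01 at 4 months.

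The share of all kept cells with a UMI of the 10 genes, at 1000 UMIs, was 2.19%, 6.29%, 5.40%, 24.5% and 23.2% in timepoint order from the parental library on. At 3000 UMIs it was 6.98%, 14.8%, 10.997%, 39.4% and 38.0%, with no thinning 35.5%, 31.8%, 48.2%, 77.4% and 70.9%, and with at least 2 UMIs required 0.0552%, 1.48%, 1.65%, 12.5% and 12.1%. Without a quality filter it was 3.84% at 48 h, 20.03% at 2 months and 21.0% at 4 months. Without CNFN it was 0.364% in the parental library, 3.57% at 48 h and 20.7% at 2 months. With a minimum of 1 CPM, or none, 4 members were counted higher at 48 h and 7 at 2 months. Those added were SPRR2A at 48 h (1.78 CPM) and SPRR2D and SPRR2E at 2 months (2.54 and 1.98 CPM). The share of all genes called at these minima is not given, so these counts have no background beside them. The cause of these moves was not tested.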
